A study of Caenorhabditis elegans with 12 samples.

Results

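The col genes of Caenorhabditis elegans, collagen genes named only by col and a number, were followed in 2 strains that carry single-base substitutions in the microRNA let-7. The members were the 157 entries of the deposited count tables whose symbol is col followed by a number, leaving out col-19 and col-176. They were 157 of 46711 entries in the table of the U13A mutant and 157 of 46722 in the table of the U18A mutant. Coordinates given below are those of the WBcel235 assembly (Ensembl release 115), matched by symbol for 153 of the 157 members. The build and annotation behind the counts are not given in the sources used here.

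The worm's cuticle is an extracellular coat made largely of small collagens, which the epidermis secretes anew at every larval stage and again for the adult. Many of these genes are switched on in a pulse at a set time within the moult cycle, early, intermediate or late, and some are used only in larvae, in the dauer larva or in the adult. let-7 belongs to the heterochronic pathway, which times larval stages. It represses lin-41, and in animals in which lin-41 stays active the transcription factor LIN-29, which turns epidermal cells to the adult programme, is held back.

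RNA came from whole animals at the mid L4 stage, the last larval stage, grown at 20 °C and collected 45 h after feeding, with 3 libraries (A, B and C) in each of 4 groups. For U13A, strain DG3913 with lin-41(tn1541) served as the control for strain VT3878, whose genotype is lin-41(tn1541ma480) with let-7(ma432). For U18A, strain VT1367, which holds the transgene maIs105, served as the control for strain VT3797, in which maIs105 is combined with let-7(ma435). Thus both U13A groups carry lin-41(tn1541), both U18A groups carry maIs105, and the U13A mutant differs from its control at lin-41 as well as at let-7, so those alleles cannot be told apart. Each mutant is represented by 1 strain. All groups were collected at 1 time point, so a shift in moult timing between strains cannot be told apart from other effects of the alleles. The labels do not say whether the libraries of a group came from separate cultures, so p-values measure the spread between these libraries, which may be technical.

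The total count per library was between 16659340 and 21414080 in the U13A table and between 6107652 and 9607239 in the U18A table. In the U13A libraries 65.6% to 76.8% of all counts went to 3 entries, and the same 3 entries took 0.527% to 1.01% in the U18A libraries. Levels, given as CPM (read counts relative to the scaled size of the library), were therefore compared only within a table. The U13A control C library stood apart, with a scaling factor of 0.577 against 1.02 to 1.22 in the other U13A libraries. In whole animals, fewer epidermal cells and less RNA per cell cannot be told apart. None of the 6 epidermis markers was called in either mutant, and their summed level was 861 to 1025 CPM in the U18A controls and 793 to 867 CPM in the U18A mutants. For U13A the same sum was 262 to 329 CPM in the controls and 306 to 318 CPM in the mutants. Most of each sum came from 1 gene, vab-10, so the sums say little about the other markers. Its means were 751 and 664 CPM in the U18A controls and mutants, and 259 and 268 CPM in those of U13A.

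More col genes fell than rose in each mutant. In the U18A mutant 53 of the 118 members tested fell and 11 rose, and 54 did not pass an adjusted p of 0.05 in edgeR's quasi-likelihood test. Of all 12689 genes that table tested, 5.88% were called lower and 2.29% higher, against 44.9% and 9.3% of the members tested. The U13A table tested 114 members, of which 25 fell, 5 rose and 84 did not pass. Among all 12044 genes tested there 0.822% were called lower and 0.731% higher, against 21.9% and 4.4% of the members. The median log2 fold change of the members tested was -0.70 in the U18A mutant and -0.31 in the U13A mutant, beside 0.01 and -0.01 over all genes tested.

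The members not tested were at or close to 0. In the U13A libraries a total of 43 members missed the minimum on counts, with at most 14 counts in any library, and 6 of them had no count at all. In the U18A table there were 39 such members, with at most 15 counts and 5 without any. The dauer collagen col-2 was among them, with 0 to 2 counts per library in either table.

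**Figure D1:**
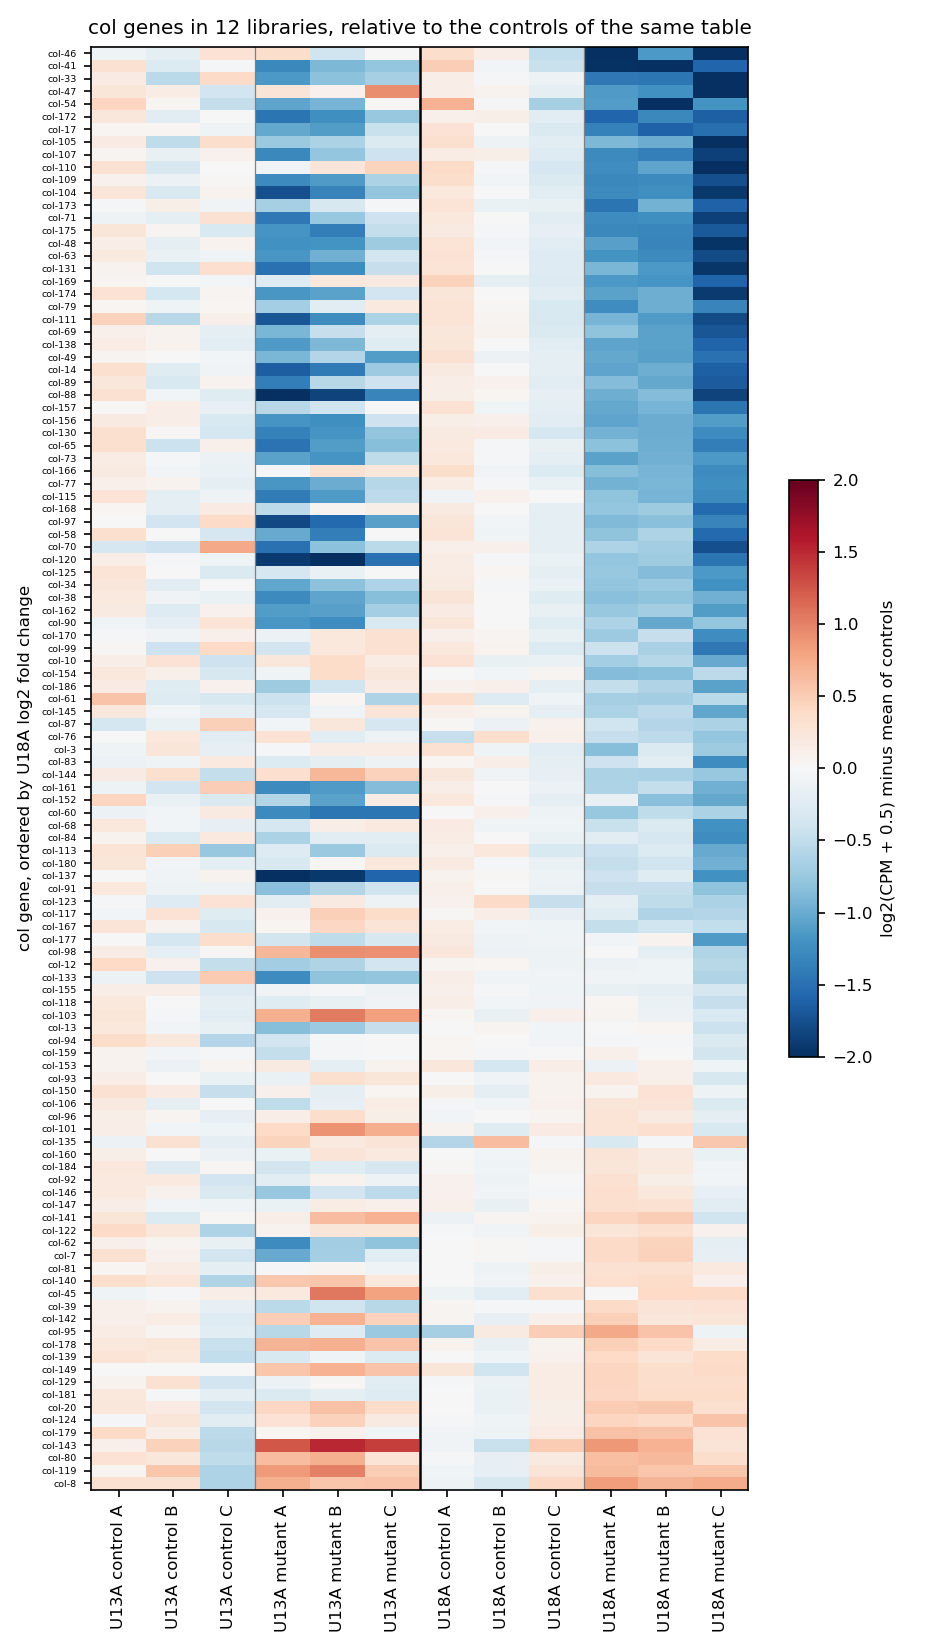
Each row is 1 of the 114 col genes tested in both tables, ordered by the U18A log2 fold change, and each column is 1 library. Colour gives log2(CPM + 0.5) minus the mean of the 3 controls of the same table, so blue is below and red above those controls. The upper rows are blue in the U18A mutants and mostly blue in the U13A mutants, and the lowest rows are red in the U18A mutants.

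The falls were in part shared between the mutants. Among the 114 members tested in both tables, 21 fell in both, and these include col-17, col-41, col-60, col-97, col-104, col-120 and col-14. None rose in both, and none rose in one mutant and fell in the other. For rises, the matching counts over all genes were not computed. The 21 are 84.0% of the 25 that fell in the U13A mutant and 41.2% of the 51 that fell in the U18A mutant and were tested in both. Over all 11888 genes tested in both tables, these members included, 53 fell in both. That is 54.1% of the 98 lower in the U13A mutant and 8.0% of the 661 lower in the U18A mutant. These shares rest on unlike base rates, since 51 of 114 members but 661 of 11888 genes fell in the U18A mutant. They do not show that falls were shared more among col genes than among other genes. A further 30 members tested in both fell only under the U18A threshold and 4 only under the U13A threshold, namely col-13, col-62, col-88 and col-137. The estimates of 63 members were below 0 in both mutants and those of 19 were above 0 in both. Across the 114 members the log2 fold changes of the mutants were correlated with Pearson r = 0.543 and Spearman rho = 0.559. The tables share no library, but genes measured in the same libraries are not independent.

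**Figure D2:**
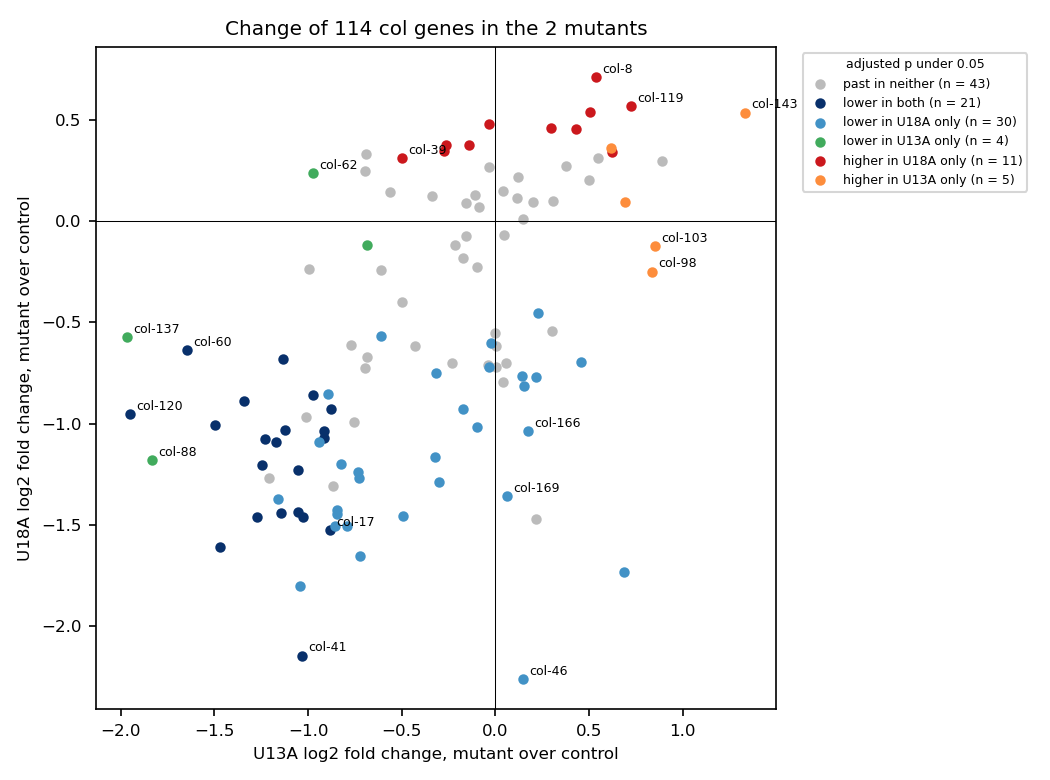
Each point is 1 of the 114 col genes tested in both tables, with the U13A log2 fold change on the x axis and the U18A log2 fold change on the y axis, coloured by which tests it passed. The 21 genes lower in both lie in the lower left quadrant, and the 11 genes higher in the U18A mutant lie between 0.31 and 0.71 on the y axis.

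Among the members that fell in both mutants was col-17, a collagen of larval stages that LIN-29 is known to repress, at II:4866436-4867576. In the U18A table it was at 55.7, 45.2 and 37.3 CPM in controls A, B and C and at 17.5, 14.5 and 15.6 CPM in the mutants. In the U13A table it was at 11.9, 11.9 and 10.9 CPM in the controls and at 5.43, 5.04 and 8.38 CPM in the mutants. The groups did not overlap in either table. Here and below, groups that do not overlap add no support for members picked by the test on these same libraries. The share of such genes over all genes was not computed. The log2 fold change was -1.53 (adjusted p = 7e-06, SE 0.14) in the U18A mutant and -0.88 (adjusted p = 0.0241, SE 0.18) in the U13A mutant.

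A second member lower in both was col-120 (IV:9260610-9261787), a collagen reported to be needed for the long life of worms with reduced insulin signalling. Its level was 12.7, 11.2 and 10.9 CPM in the U13A controls and 2.69, 2.52 and 3.795 CPM in the U13A mutants. In the U18A table it stood at 635, 559 and 523 CPM in the controls and 332, 349 and 207 CPM in the mutants. All mutant libraries lay below all controls of their table. The log2 fold change was -1.95 (adjusted p = 7e-05, SE 0.17) in the U13A mutant, the second largest fall named there, and -0.95 (adjusted p = 0.0194, SE 0.19) in the U18A mutant. Fits without 1 library lost the U18A call in 3 of 6 cases, with adjusted p up to 0.0579 without control A.

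The well expressed col-97 and col-104 also fell in both mutants. In the U13A table col-97 was at 117, 89.6 and 153 CPM in the controls and 33.0, 39.7 and 54.7 CPM in the mutants, a log2 fold change of -1.50 (adjusted p = 0.0076, SE 0.22). In the U18A table its log2 fold change was -1.005 (adjusted p = 0.000417, SE 0.14), from 972 CPM on average in the controls to 485 CPM in the mutants. For col-104 the U18A controls were at 931, 804 and 692 CPM and the mutants at 332, 342 and 211 CPM, with no overlap. The log2 fold change of col-104 was -1.46 (adjusted p = 0.00292, SE 0.19) in the U18A mutant and -1.27 (adjusted p = 0.0257, SE 0.24) in the U13A mutant. The U13A calls of col-97 and col-104 were lost in 2 and 4 of the 6 fits without 1 library.

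**Figure D3:**
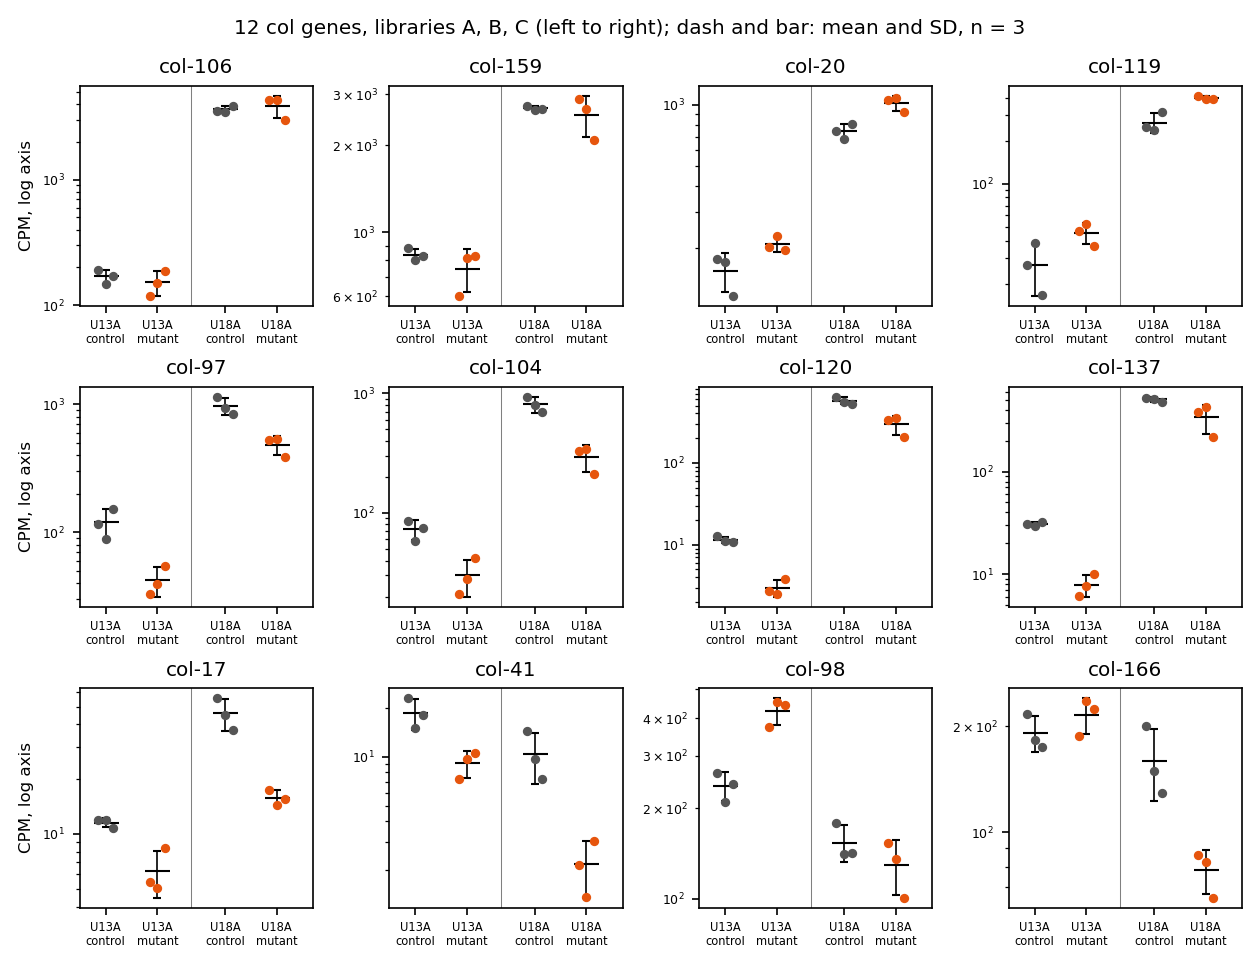
CPM of 12 col genes by library on log axes, with libraries A, B and C from left to right in each group and the mean and SD (n = 3) as dash and bar. Levels are comparable within a table only. The mutants of col-97, col-104, col-120 and col-17 lie below the controls in both tables, col-98 lies above the controls in the U13A mutants and col-166 below them in the U18A mutants.

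Among members with a mean of at least 5 CPM, col-41 fell most in the U18A mutant. It was at 14.3, 9.62 and 7.27 CPM in the controls and 2.17, 1.36 and 3.02 CPM in the mutants, a log2 fold change of -2.14 (adjusted p = 0.000447, SE 0.30). It fell in the U13A mutant too (log2 fold change -1.03, adjusted p = 0.0139, SE 0.18). After it in the U18A mutant came col-33 (-1.80), col-172 (-1.61), col-17, col-107 (-1.51), col-109 (-1.46), col-104 and col-173 (-1.46), all with SE of 0.21 or less. Among these col-33, col-107 and col-173 did not pass in the U13A mutant. In all, 36 members fell by at least 1 on the log2 scale in the U18A mutant, and 18 did so in the U13A mutant. How many of all genes tested fell by that much was not computed.

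The largest fall in the U13A mutant was that of col-137, whose levels were 31, 29.5 and 32.4 CPM in the controls and 6.14, 7.74 and 9.96 CPM in the mutants. Its log2 fold change there was -1.96 (adjusted p = 7e-05, SE 0.16). In the U18A mutant its estimate of -0.57 (SE 0.25) did not pass, with an adjusted p of 0.272. After col-137 and col-120 came col-88, at 22.5, 17.3 and 15.2 CPM in the U13A controls and 3.98, 4.64 and 6.96 CPM in the mutants (log2 fold change -1.83, adjusted p = 0.00106, SE 0.21). In the U18A mutant the estimate for col-88 was -1.18 (adjusted p = 0.0657, SE 0.27). Among members with a mean of at least 5 CPM the next U13A falls were those of col-97, col-104, col-14 (-1.24), col-65 (-1.23) and col-130 (-1.17). Below that level col-60 (-1.65), col-172 (-1.47) and col-38 (-1.34) fell by similar or larger amounts. Each of these 8 genes also fell in the U18A mutant.

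The U13A counts rest on a few libraries. Leaving out control A left 7 of the members lower, leaving out mutant A left 4 and leaving out mutant B left 5. The 4 that stayed lower in every fit tried were col-60, col-88, col-120 and col-137. Among the 25 members lower in the U13A mutant, control A was the highest control for 20, mutant C the highest mutant for 22 and mutant A the lowest mutant for 19. In the U18A mutant the count of falls was 47 to 57 without any 1 library, and 40 of the 53 were lower in every fit tried. Control A was the highest control for 47 of these 53, control C the lowest control for 49 and mutant C the lowest mutant for 46. Mutant C was also the lowest mutant for 46 of the 54 members that did not pass, and its scaling factor was 1.12 against 0.953 and 0.965 in mutants A and B. Across 114 members, U18A control C minus control A on the log2 scale was correlated with the U13A log2 fold change (Pearson r = 0.419). The cause of this was not tested.

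The 11 members that rose in the U18A mutant were mostly abundant and rose by little. They were col-8, col-20, col-39, col-80, col-119, col-124, col-129, col-139, col-178, col-179 and col-181. The largest was col-8, at 33.1, 28.6 and 47.9 CPM in the controls and 64.4, 57.2 and 59.97 CPM in the mutants, a log2 fold change of 0.71 (adjusted p = 0.0183, SE 0.16). For col-119 the controls were at 250, 236 and 316 CPM and the mutants at 410, 392 and 389 CPM, a log2 fold change of 0.57 (adjusted p = 0.00117, SE 0.10). The groups did not overlap for either gene. The rises of col-80 (0.54), col-179 (0.48), col-124 (0.46), col-20 (0.46), col-181 (0.37) and col-129 (0.37) had SE of 0.09 to 0.10. Control B was the lowest control for all 11.

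These rises depended on the fit and on single libraries. In 1 fit to all 12 libraries, which changes the genes tested, the scaling and the estimate of spread together, only col-124 still passed. The count fell to 4 without control B and to 5 without control A, and it was 18 without mutant C. The genes col-80, col-119 and col-179 passed in every fit without 1 library.

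The 5 members that rose in the U13A mutant were col-98, col-101, col-103, col-143 and col-149. For col-143 the U13A controls were at 9.58, 12.5 and 5.94 CPM and the mutants at 21.9, 26.5 and 24.2 CPM, a log2 fold change of 1.33 (adjusted p = 0.00917, SE 0.21). The abundant col-98 was at 262, 210 and 241 CPM in the controls and 374, 454 and 444 CPM in the mutants, a log2 fold change of 0.84 (adjusted p = 0.0244, SE 0.17). Next to it in size was col-103, at 223, 186 and 164 CPM in the controls and 309, 389 and 336 CPM in the mutants (log2 fold change 0.85, adjusted p = 0.0249, SE 0.17). The rises of col-101 and col-149 were 0.69 (SE 0.15) and 0.62 (SE 0.12). The mutants lay above the controls for all 5, but the 5 were picked by the test on these same libraries, so this adds no support. None of the 5 was called without control A, without mutant A or without mutant B, while 2 of the 5 were still called without control B and 1 without mutant C. Mutant A was the lowest mutant for all 5. Their U18A estimates were 0.53 for col-143, -0.25 for col-98 and -0.12 for col-103, and none of the 5 passed there.

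In the U18A mutant the rises lay mostly among abundant members and the falls in all 3 abundance classes. Members were ranked by mean CPM per kilobase of exon, which allows levels of different genes to be compared, and split into 3 classes of like size within each table. In the U18A table the most abundant class (38 members) held 12 falls and 9 rises, with a median log2 fold change of 0.05. The middle class (39 members) held 22 falls and 2 rises with a median of -0.93, and the least abundant class (39 members) held 18 falls and no rise with a median of -0.72. For U13A the medians from the most abundant class down were -0.04, -0.33 and -0.59, with 6, 12 and 7 falls and with 3, 2 and 0 rises. Across members, the U18A log2 fold change and log2 CPM per kilobase were correlated with Pearson r = 0.34 and Spearman rho = 0.326 (116 members), and the U13A values were 0.222 and 0.256 (113 members). Counting error is larger for genes of low count, and both quantities came from the same libraries.

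**Figure D4:**
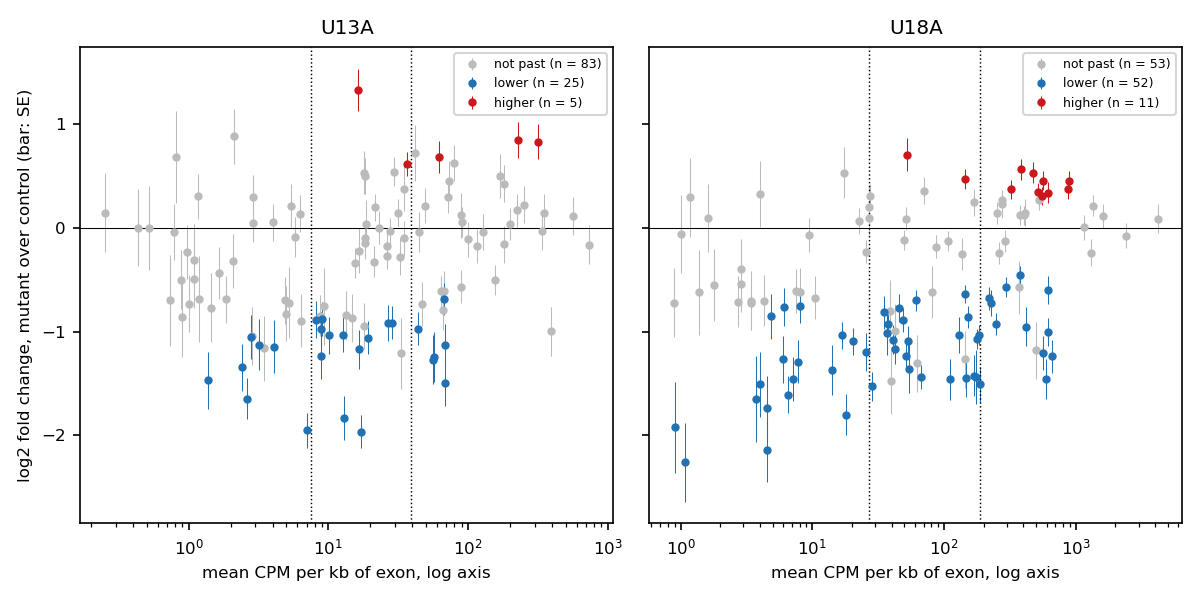
Log2 fold change of each tested col gene (point, bar is the SE) against mean CPM per kilobase of exon on a log axis, in the U13A table (left) and the U18A table (right), with dotted lines between the 3 abundance classes. In the U18A panel, falls of more than 1 occur in all 3 classes, though in none of the 8 most abundant genes, and the 11 rises lie above 50 CPM per kilobase.

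The most abundant members mostly did not pass. In the U18A table the order by CPM per kilobase began with col-106, col-159, col-160, col-122, col-133 and col-93, none of which was called. For col-106 the level was 3544, 3466 and 3853 CPM in the controls and 4298, 4307 and 2963 CPM in the mutants, so the groups overlapped (log2 fold change 0.09, adjusted p = 0.76, SE 0.14). In per-length units it was at 4064 ± 230 CPM per kilobase in the controls and 4328 ± 868 in the mutants (SD, n = 3). Next came col-159 at 2486 ± 48.8 CPM per kilobase in the controls and 2360 ± 381 in the mutants, also overlapping. Among the next members col-20 and col-181 rose, while col-138 and col-180 fell. For col-138 the controls were at 922, 771 and 665 CPM and the mutants at 374, 372 and 256 CPM, a log2 fold change of -1.24 (adjusted p = 0.00109, SE 0.16).

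In the U13A table col-159, col-160, col-133, col-93 and col-180 led the order by CPM per kilobase, and again none was called. The widest gap among them was that of col-133, at 449, 362 and 699 CPM in the controls and 202, 276 and 279 CPM in the mutants. The groups did not overlap, but the log2 fold change of -0.996 (SE 0.24) had an adjusted p of 0.0642. The sixth and eighth in order were col-98 and col-103, which rose. Log2 levels of the controls were correlated between the tables, with Pearson r = 0.851 and Spearman rho = 0.821 over 113 members. Both were divided by the same exon lengths. Some members differed widely in rank, such as col-98 (6 in the U13A table, 49 in the U18A table) and col-103 (8 and 52). In the other direction, col-120 ranked 76 and 21. Reads of col-159 and col-160, whose exons overlap on the same strand, may be shared.

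Summed over the members, the col level was 33990, 31140 and 31640 CPM in the U18A controls and 31050, 30580 and 23990 CPM in the mutants. The U18A mutants lay below the controls, the first and second by little. The U13A sums were 7862, 6878 and 6798 CPM in the controls and 5913, 7320 and 7283 CPM in the mutants, which overlap. The 10 leading members took 46.3% to 49.7% of the summed CPM per kilobase in the U18A controls and 52.8% to 54.3% in the mutants. No test was made on these sums.

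Collagens with a known place in development or in wide use as reporters gave mixed results. The adult collagen col-7 was at 246, 248 and 238 CPM in the U18A controls and 317, 334 and 218 CPM in the mutants, and its estimate of 0.25 (SE 0.13) had an adjusted p of 0.321. Its U13A estimate was -0.70 (adjusted p = 0.198, SE 0.23). For col-12, whose promoter is widely used to drive expression in the epidermis, the estimates were -0.24 (SE 0.11) and -0.61 (SE 0.20) in the U18A and U13A mutants, neither called. Its neighbour col-13 fell in the U13A mutant (log2 fold change -0.68, adjusted p = 0.0406, SE 0.15) and was at -0.12 (SE 0.11) in the U18A mutant. The collagen col-10 fell in the U18A mutant (log2 fold change -0.77, adjusted p = 0.00259, SE 0.14) and was at 0.22 (SE 0.17) in the U13A mutant. The symbol col-99 belongs to a transmembrane collagen rather than to a cuticle collagen, and it did not pass in either mutant (U18A estimate -0.80, SE 0.29, U13A estimate 0.04, SE 0.23).

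The effects of the mutants differed for 13 members. In 1 fit to all 12 libraries the U13A log2 fold change minus the U18A log2 fold change was tested over 14155 genes, of which 1.96% were called, and over the 121 members tested there 10.7% were called. In this contrast the strain backgrounds and lin-41 alleles differ along with let-7, so these cannot be told apart. For 9 members the U13A value lay above the U18A value, and for 4 it lay below. For col-166 the U18A controls were at 200, 149 and 129 CPM and the mutants at 86.3, 82.3 and 65.2 CPM. Its U13A controls were at 216, 183 and 174 CPM and the mutants at 187, 235 and 223 CPM, which overlap. The difference was 1.23 (adjusted p = 0.00276, SE 0.22).

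Next by p among the differences above 0 were col-98 (1.11, adjusted p = 0.00567, SE 0.22), col-169 (1.44, adjusted p = 0.00633, SE 0.26), col-103 (0.99, adjusted p = 0.00636, SE 0.20) and col-144 (1.17, adjusted p = 0.00951, SE 0.23). The genes col-98 and col-103 rose in the U13A mutant, while col-166, col-169 and col-144 fell in the U18A mutant. Below 0 were col-62 (-1.19, adjusted p = 0.00488, SE 0.22), col-39 (-0.79, adjusted p = 0.0103, SE 0.17) and col-137 (-1.37, adjusted p = 0.0285, SE 0.30). For col-62 the levels were 12.7, 12.4 and 10.7 CPM in the U13A controls and 4.68, 7.17 and 6.59 CPM in the U13A mutants, against 257, 263 and 255 CPM and 336, 350 and 228 CPM in the U18A table. It fell in the U13A mutant and did not pass in the U18A mutant. The fourth below 0 was col-60 (-0.98), which fell in both. The calls of col-39, col-60, col-62, col-98, col-103 and col-166 held in every fit tried, whereas that of col-137 was lost in 9 of the 12 fits without 1 library. For the remaining 108 members a difference was not detected, which does not show that the mutants act alike on them.

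When members were clustered by their values relative to the controls, they fell mostly into 2 groups. These values hold the mutant effects themselves, so a split of falls from rises was built in and adds no support. One held 76 members with median log2 fold changes of -0.998 in the U18A mutant and -0.75 in the U13A mutant, among them 24 of the 25 U13A falls and all 51 U18A falls. The other held 36 members with medians of 0.26 and 0.12, among them all 5 that rose in the U13A mutant, all 11 that rose in the U18A mutant, and col-62. The median level in the U18A table was 42.6 CPM per kilobase in the first and 298 CPM per kilobase in the second. The other clusters were col-135 and col-153 alone. Members were also clustered by their deviations from the mean of each group, which removes the mutant effects. Falls and rises did not separate there. Most members lay in 1 cluster, with 49 of the 51 U18A falls and all 11 U18A rises. It also held 24 of the 25 U13A falls and 4 of the 5 U13A rises. The remaining clusters held 4, 3 and 3 members.

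Some col genes lie close together in the genome. Of the 29 pairs of adjacent members within 5000 bp, both were tested in 24. In the U18A mutant 7 of these pairs fell together, 2 rose together and 11 had no call, while 3 had opposite calls and in 1 pair a single member fell. Runs of members supply several of these pairs, and the share of like calls among members that are not neighbours was not computed. On chromosome X the run of col-167, col-168, col-169 and col-170 fell in the U18A mutant, with log2 fold changes of -0.46, -1.02, -1.36 and -0.81. Their U13A estimates were 0.23, -0.10, 0.06 and 0.15, and none passed. The run of col-144, col-145 and col-10 on chromosome V fell in the U18A mutant, with log2 fold changes of -0.70, -0.72 and -0.77.

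The opposite calls lay on chromosome II. There col-20 (II:4869670-4870791), which rose by 0.46 in the U18A mutant, lies between col-17 and col-73, which fell with log2 fold changes of -1.53 and -1.07. Both fell in the U13A mutant as well, where the estimate of col-20 was 0.43 and did not pass. The other such pair was col-79, which fell by 1.29 in the U18A mutant, and col-39, which rose by 0.31. Next to col-39 on its other side col-80 also rose. For U13A, 7 pairs had a call for 1 member and 17 had none.

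**Figure D5:**
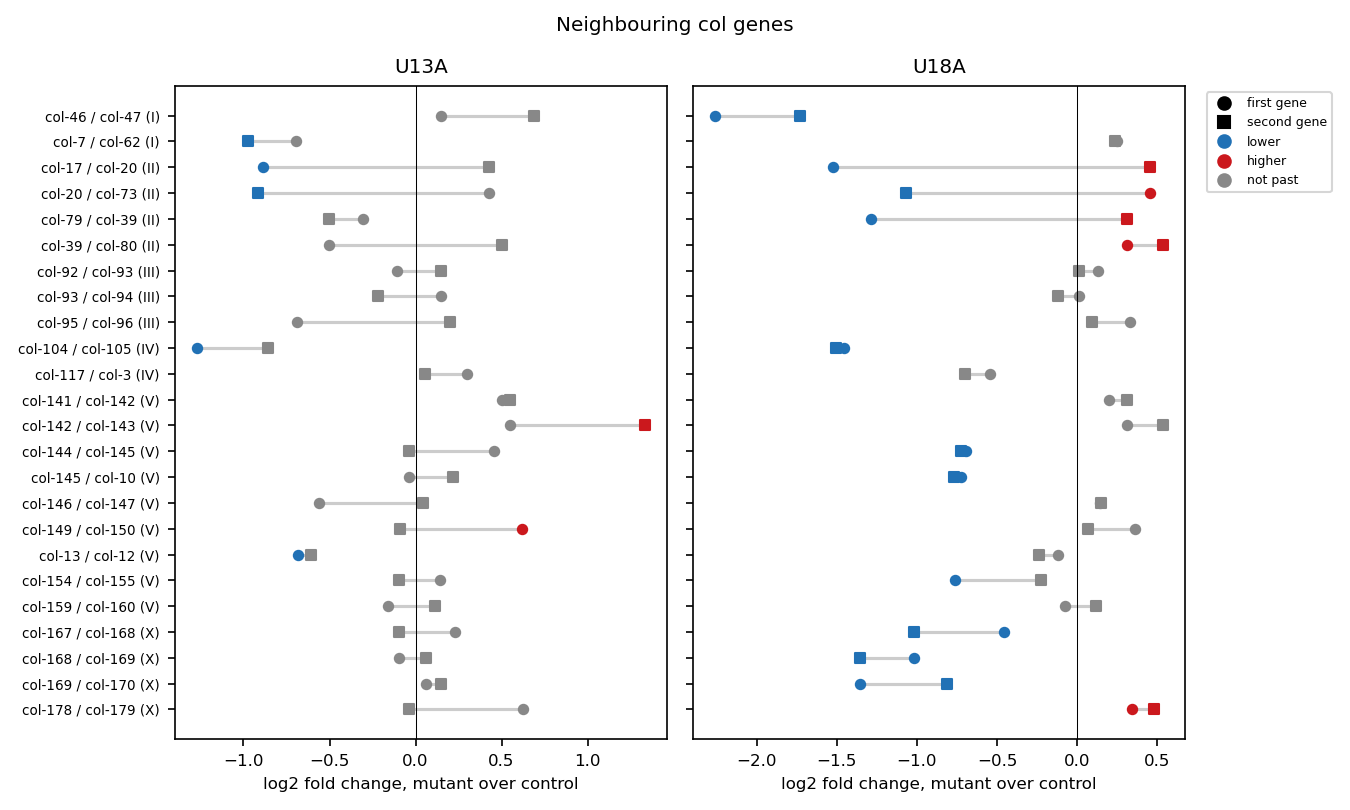
Log2 fold changes of both members of the 24 pairs of col genes that lie within 5000 bp of each other, in the U13A mutant (left) and the U18A mutant (right), coloured by call. In the U18A panel the pairs formed by col-17, col-20 and col-73 and the pair of col-79 and col-39 join a fall to a rise, while the pairs from col-167 to col-170 lie below 0 throughout.

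By chromosome, the share of falls in the U18A mutant was 8 of 13 on I, 7 of 18 on II, 4 of 12 on III, 14 of 32 on IV, 8 of 24 on V and 11 of 17 on X. No member on I rose. The shares over all genes of each chromosome were not computed, so no chromosome can be said to stand out for col genes. Exons of 52 members overlap those of another gene in the annotation, and strand use in counting is not given in the sources used here, so such counts are uncertain. They include col-8, col-97, col-103, col-124, col-143, col-149 and col-179, and also the pair of col-46 and col-47, which overlap on opposite strands. Those 2 fell in the U18A mutant with log2 fold changes of -2.26 and -1.73, from levels of 3.27 to 6.27 CPM and 4.32 to 5.52 CPM in the controls. Where the member rose in the U18A mutant and the partner was tested, the partner's log2 fold change was 0.33 for lgc-38 (overlapping col-8), -0.01 for qns-1 (col-124) and 0.22 for C34F6.11 (col-179), none called. Where the member fell, Y18H1A.9, which overlaps col-47 on the opposite strand, fell as well (-1.07, adjusted p = 0.00123), at a mean of 9.41 CPM against 3.31 CPM for col-47. The partners of col-71, col-90, col-115, col-125 and col-156 were tested and not called, with log2 fold changes from -0.85 to 0.15. Col genes are also alike in sequence, and how reads that map to several places were counted is not given in the sources used here.

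Cuticle collagens with other names also fell in the U18A mutant. All 19 tested of a list of 21 named for body shape or blister phenotypes fell there, with a median log2 fold change of -1.45, and in the U13A mutant 3 fell (dpy-5, dpy-13 and bli-6) and 2 rose (dpy-2 and dpy-9). Of 12 genes that process collagen, 5 fell in the U18A mutant, among them dpy-18 (-0.83, SE 0.10), a subunit of the prolyl hydroxylase that modifies collagen chains, and none passed in the U13A mutant. Of 14 regulators tested, 4 fell in the U18A mutant, namely grh-1 (-1.15), lin-42 (-0.94), blmp-1 (-0.62) and lin-29 (-0.50), and lin-41 rose (0.28, adjusted p = 0.0338, SE 0.08). In the U13A mutant only daf-12 was called among the regulators, and it rose (0.78, adjusted p = 0.0241, SE 0.16). Over all genes tested, 5.88% were called lower and 2.29% higher in the U18A mutant. The U13A shares were 0.822% and 0.731%.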

How the data were processed

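The authors deposited raw read counts per gene in 2 tables, one for each mutant with its control. Per the labels' protocols, total RNA was depleted of ribosomal RNA, made into libraries with the NEBNext Ultra II kit and sequenced on an Illumina NextSeq instrument. The submitters' processing notes name cutadapt 1.9, Bowtie2 2.3.4.3 and featureCounts of Subread 1.6.2, without their settings. The build, the annotation, strand use and the treatment of multiply mapped reads are not given in the sources used here.

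For each table, edgeR 4.0.16 in R 4.3.3 fitted a quasi-likelihood model to the counts (glmQLFit, robust, and glmQLFTest, 2-sided) of its 6 libraries. Genes were kept by filterByExpr (minimum count 10, minimum total 15), scaled by TMM, and adjusted by Benjamini-Hochberg over all genes tested, with a threshold of 0.05. The difference between the mutants was the interaction contrast in 1 fit to all 12 libraries. CPM use TMM-scaled library sizes. The procedure was tested on simulated counts with known changes, and the outcome is not given here. Apart from those changes, the simulated libraries of a table shared 1 mean profile, so shifts of single libraries were not simulated. Every pair of replicate libraries differed by more than sampling noise.

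Genes were named by a rule: per comparison the 8 largest called changes per direction with a mean of at least 5 CPM, the 10 most abundant members per kilobase, for the difference the 5 smallest p per direction, and 8 genes named from background knowledge. Any other gene was picked with its values in view. The members and lists were chosen with earlier results of these data known. Clusters used average linkage on 1 minus the Pearson correlation of log2(CPM + 0.5), with 4 clusters. Of the lists, ram-4 and myrf-1 were not matched by symbol. The lists of 6 markers each for germline, sperm, body wall muscle, intestine, neurons and pharynx held no called gene in either mutant. Promoter motifs and protein identities were not analysed here. Alternatives were RLE size factors, TMM without collagen genes, no count filter, a replicate block, a mean of at least 10 counts, leaving out the 10 most abundant entries, DESeq2 1.42.0, all 12 libraries in 1 fit, an adjusted p of 0.01 and leaving out each library.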

Additional observations from a re-analysis of the deposited data

Results flagged for a closer look

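The test of the difference between the mutants picked out 13 col genes, given here as the U13A minus the U18A log2 fold change. Above 0 were col-46 (2.438), col-47 (2.437), col-169 (1.436), col-166 (1.229), col-144 (1.172), col-98 (1.107), col-10 (1.004), col-103 (0.995) and col-170 (0.982). Below 0 were col-137 (-1.372), col-62 (-1.191), col-60 (-0.982) and col-39 (-0.787). The largest differences, of col-46 and col-47, rest on levels of about 1 CPM or less in the U13A table, and these genes overlap on opposite strands. All 13 came from the 12-library fit of edgeR, with adjusted p from 0.00276 to 0.0440.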

How the results depend on the processing

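No member called in a comparison changed sign under any alternative. Among members that did not pass, 19 of 84 in the U13A comparison, 9 of 54 in the U18A comparison and 39 of 108 in the difference changed sign, all with estimates of at most 0.31 in size. The count of 53 falls in the U18A mutant stayed within 45 to 65. The other counts moved. Falls in the U13A mutant, 25 as reported, were 42 without a count filter, 38 with DESeq2 and 8 at an adjusted p of 0.01, and leaving out 1 library gave 4 to 33. Rises in the U13A mutant, 5 as reported, were 11 without a count filter, 8 in 1 fit to all 12 libraries and 1 at an adjusted p of 0.01, and leaving out 1 library gave 0 to 7. Rises in the U18A mutant, 11 as reported, were 1 in 1 fit to all 12 libraries and 5 at an adjusted p of 0.01, and leaving out 1 library gave 4 to 18. Members that differed between the mutants, 13 as reported, were 32 without a count filter and 7 at an adjusted p of 0.01, and leaving out 1 library gave 9 to 18. The cause was not tested. Fewer libraries enter each fit that leaves one out.

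Whether the letters A to C pair controls with mutants could not be settled with 3 libraries per group. Same-letter correlations of deviations from the group means ranged from -0.033 to 0.124, and different-letter ones from -0.164 to 0.198. With the letter as a replicate block, calls over all genes went from 187 to 393 for U13A and from 1036 to 1429 for U18A. Among the members, the counts with this block were 36 falls and 8 rises in the U13A mutant, 65 and 12 in the U18A mutant, and 18 for the difference.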
